A study of Mus musculus with 242 samples.

Results

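The list examined here holds 40 genes of DNA replication and cell division, chosen by name from knowledge of the cell cycle. The choice was made with earlier results of these data known. Of the 40 genes, 39 were measured among 18193 genes in mouse liver. Ccnb1, cyclin B1, was not analysed here because no probe set carried its symbol. For each gene the probe set with the highest mean signal over all arrays was used, so that 11 members rested on their sole probe set and 28 on 1 of several.

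A cell that leaves rest first makes the cyclins and enzymes of DNA synthesis under the E2F transcription factors, loads the MCM helicase onto its replication origins and copies its genome. The genes of mitosis follow, many of them under MuvB, B-MYB and FOXM1, and they code for the kinases, motors and checkpoint proteins that part the chromosomes. Hepatocytes of an adult mouse are mostly at rest and re-enter the cycle after injury or under some liver mitogens, whereas immune cells in the sinusoids may divide at any time.

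Livers of female B6C3F1 mice, with no engineered allele in the labels, were profiled on 242 arrays of 1 colour, 1 array per mouse. Exposure began at 5 weeks of age and lasted 13 weeks, so the mice were 18 weeks old. There were 46 treated groups, covering 26 chemicals, and 14 vehicle or untreated control groups. Of these 60 groups, 6 had 3 arrays, 46 had 4 and 8 had 5.

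Inhaled chemicals (6 hours per day, 5 days per week, with air controls) were Tetrafluoroethylene at 1250 ppm, Tetrafluororethane at 50000 ppm, Vanadium Pentoxide at 2 mg/m3 and Ethylene Oxide at 100 ppm. Propylene glycol mono-t-butyl ether at 25, 75, 300, 800 and 1200 ppm, Methylene Chloride at 100, 500, 2000, 3000 and 4000 ppm and Naphthalene at 0.5, 3, 10, 20 and 30 ppm were also inhaled. Feed (7 days per week, with plain chow as control) carried N-(1-naphthyl)ethylenediamine dihydrochloride or 1,5-Naphthalenediamine at 2000 ppm, Tris(2,3-dibromopropyl)phosphate at 1000 ppm and Pentachloronitrobenzene at 8187 ppm. It also carried 1-Amino-2,4-dibromoanthraquinone at 20000 ppm, 4-Nitroanthranilic acid at 10000 ppm, 2,2-Bis(bromomethyl)-1,3-propanediol at 1250 ppm, Malathion at 14800 ppm and Diazinon at 200 ppm. Gavage in corn oil (5 days per week) delivered 2,3-Benzofuran at 240 mg/kg, Benzene at 100 mg/kg, Coumarin at 200 mg/kg, 1,2-Dibromoethane at 62 mg/kg, Trichlorofluoromethane at 3925 mg/kg and Iodoform at 93 mg/kg. 1,4-Dichlorobenzene at 100, 300, 400, 500 and 600 mg/kg and 1,2,3-Trichloropropane at 2, 6, 20, 40 and 60 mg/kg were given the same way. Gavage in water delivered 2-Chloromethylpyridine hydrochloride at 250 mg/kg and N-Methylolacrylamide at 50 mg/kg.

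The arrays were grouped into 4 runs by the run codes in the labels, of 54 (run A), 36 (B), 18 (C) and 134 arrays (D). Run A joins arrays of different run codes, and their mix was not the same in every group. Treated groups were compared with controls of their own run. RNA integrity numbers were 4.7 to 7.8 in run A and 7.1 or more in the other runs, with 25 missing. All 8 hepatocyte markers on the list were measured, and their summed signal was 294630 to 775300. The label of control set CCO3 gives water although its titles resemble those of the corn oil sets, and no treated group was compared with it. Signals of whole liver sum over all its cells, so fewer cells of a type and less RNA per cell cannot be told apart.

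S phase and mitosis genes are often told apart by short elements upstream of their starts, and some of the listed genes hold such elements while others do not. Promoter windows of 250 bases before the transcription start (RefSeq, GRCm38.p6) were found for 33 of the 40 genes, Ccnb1 included. Windows of 8 genes whose values recur in the results are printed 5′ to 3′ on the gene's strand, with matches in capitals. The motifs searched were the cell cycle homology region (CHR) as TTTGAA or TTCAAA, the CCAAT box as CCAAT or ATTGG, and 2 E2F forms, TTTCCCGC or GCGGGAAA and TTTGGCGC or GCGCCAAA, each on both strands.
Cdc20 (chr4:118437344-118437593, minus strand): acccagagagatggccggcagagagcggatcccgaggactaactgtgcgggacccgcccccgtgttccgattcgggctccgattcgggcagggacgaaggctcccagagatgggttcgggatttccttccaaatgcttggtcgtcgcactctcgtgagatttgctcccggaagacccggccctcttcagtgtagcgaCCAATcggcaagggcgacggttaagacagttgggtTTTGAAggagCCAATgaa
Ccnb2 (chr9:70421555-70421804, minus strand): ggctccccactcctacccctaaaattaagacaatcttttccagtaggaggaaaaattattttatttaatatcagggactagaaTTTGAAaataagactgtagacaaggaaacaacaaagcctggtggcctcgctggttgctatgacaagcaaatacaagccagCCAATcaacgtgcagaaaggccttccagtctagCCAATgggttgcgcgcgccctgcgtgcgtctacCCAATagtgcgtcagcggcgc
Ube2c (chr2:164769679-164769928, plus strand): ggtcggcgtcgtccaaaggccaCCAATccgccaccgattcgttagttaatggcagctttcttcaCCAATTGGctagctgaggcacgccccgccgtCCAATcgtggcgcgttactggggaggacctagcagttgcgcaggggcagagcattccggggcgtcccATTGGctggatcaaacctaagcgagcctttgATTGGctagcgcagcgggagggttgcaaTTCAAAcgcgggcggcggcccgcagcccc
Top2a (chr11:99024190-99024439, minus strand): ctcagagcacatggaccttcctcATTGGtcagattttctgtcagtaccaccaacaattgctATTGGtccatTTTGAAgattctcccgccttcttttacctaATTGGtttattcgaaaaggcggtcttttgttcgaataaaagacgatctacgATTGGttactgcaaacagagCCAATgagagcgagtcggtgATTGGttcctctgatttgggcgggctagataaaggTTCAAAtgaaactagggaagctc
Mcm2 (chr6:88898781-88899030, minus strand): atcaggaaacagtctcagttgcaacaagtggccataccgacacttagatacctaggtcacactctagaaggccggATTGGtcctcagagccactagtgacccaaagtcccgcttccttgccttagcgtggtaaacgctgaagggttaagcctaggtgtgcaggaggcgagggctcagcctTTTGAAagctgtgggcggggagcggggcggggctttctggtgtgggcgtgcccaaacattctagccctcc
Mcm5 (chr8:75109259-75109508, plus strand): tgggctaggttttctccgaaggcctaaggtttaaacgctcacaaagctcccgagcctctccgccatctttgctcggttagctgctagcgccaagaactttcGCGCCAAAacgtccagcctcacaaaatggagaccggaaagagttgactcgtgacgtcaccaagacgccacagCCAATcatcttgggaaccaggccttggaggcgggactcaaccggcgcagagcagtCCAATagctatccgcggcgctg
Mcm6 (chr1:128359706-128359955, minus strand): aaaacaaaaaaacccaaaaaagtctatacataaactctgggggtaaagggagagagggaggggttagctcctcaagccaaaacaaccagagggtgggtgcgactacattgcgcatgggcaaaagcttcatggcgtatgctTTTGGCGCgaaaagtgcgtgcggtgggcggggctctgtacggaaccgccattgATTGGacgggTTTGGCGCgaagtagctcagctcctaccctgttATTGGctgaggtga
Tk1 (chr11:117826015-117826264, minus strand): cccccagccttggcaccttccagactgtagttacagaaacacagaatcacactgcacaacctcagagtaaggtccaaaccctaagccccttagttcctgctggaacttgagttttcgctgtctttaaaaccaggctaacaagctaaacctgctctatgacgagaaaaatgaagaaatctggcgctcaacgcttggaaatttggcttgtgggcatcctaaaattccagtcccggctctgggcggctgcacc

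Cdc20, the activator of the anaphase-promoting complex, holds a CHR match 18 bases before its start and CCAAT boxes at 53 and 8 bases. Ccnb2 (cyclin B2), Ube2c (the ubiquitin-conjugating enzyme of that complex) and Top2a (the topoisomerase that untangles sister chromosomes) also hold both, and in Ube2c 1 CCAAT and 1 ATTGG overlap. Mcm2, Mcm5 and Mcm6 code for subunits of the replicative helicase. Mcm5 and Mcm6 hold the second E2F form, and Mcm2 is the single S phase member with a CHR match. The window of Tk1, the thymidine kinase that salvages thymidine for DNA synthesis, holds none of these letters.

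Over the 33 genes, a CHR match stood in 10 (30.3%), of which 9 were among 19 mitosis genes and 1 among 14 S phase genes. Among 32851 promoter windows of 27025 genes the share was 16%. For every motif a member was counted where any of its windows matched, while the share of all windows counts each window by itself. The units therefore differ, and a gene with several windows has more chances to match. A CCAAT box stood in 24 of the 33 (72.7%), against 33.8% of all windows. The first E2F form was in Mcm7 and Cdc6 (6.06% of members, 0.895% of all windows), and the second in Mcm5 and Mcm6 (6.06% and 0.417%). A match is a description of the letters in this window and does not show that a factor binds there.

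Most members gave low signals in these livers. With the genes below a run's median level left out, 12, 14, 15 and 14 of the 39 members would have passed in runs A, B, C and D, 11 in all 4 and 22 in none. No gene was left out in the values that follow. Mki67, the antigen of dividing cells, ranged from 2.35 to 1128 over the 242 arrays, with a median of 49.9. Pcna, the sliding clamp of DNA polymerase, ranged from 1266 to 5179, with a median of 2842.

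The means of the control sets, which span the 4 runs and different vehicles, varied in these genes. The 14 control sets' means of log2(signal + 17.3) had an SD between 0.21 for Mcm3 and 0.74 for Mki67. The median SD among mice of a set was 0.35 for Mcm3 and 0.67 for Mki67, and the set means carry part of that spread. Mki67 was lowest in the air set ACO1 (5.33 ± 0.41, SD, n = 4) and highest in the corn oil set of run C (7.88 ± 0.44, SD, n = 3). Birc5 (survivin, a subunit of the chromosomal passenger complex) ran from 4.74 ± 0.17 (SD, n = 3) in the chow set of run C to 7.56 ± 0.21 (SD, n = 3) in the corn oil set of the same run. That corn oil set was the highest of the 14 for 12 members, namely Mcm6, Rrm1, Ccna2, Cdk1, Ttk, Cdc20, Ube2c, Cenpe, Cenpf, Birc5, Mki67 and Top2a. Control sets of 1 vehicle and run could be tested against each other in 5 pairs, and no member differed at an adjusted p under 0.05 and 1.5-fold in limma (0%, 0.0879%, 0.126%, 0% and 0% of all genes). At an unadjusted p under 0.05 the pairs gave 0, 1, 1, 3 and 1 members of 39, where 4.99%, 4.91%, 6.30%, 12.4% and 6.40% of all genes had such a p.

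Members were called after exposure at a share near that of all genes, so the count is no result about these genes. A member was called where its adjusted p over all genes was under 0.05 in limma and its fold at least 1.5. Over the 46 treated groups there were 11 such calls in 1794 tests (0.613%), against 0.751% of all gene tests. The calls lay in 9 groups and on 8 members, 7 higher and 4 lower, and 31 members were called in no group. The balance of higher and lower calls changed with the processing. It was 3 higher and 5 lower with the values as deposited, 4 and 5 with the mean of all probe sets, 4 and 4 with the Gapdh 3′ to 5′ ratio as covariate, 3 and 4 with the probe set of largest variance, and 1 and 2 with only the compared groups fitted. In the 37 groups with no member called, 0% to 3.4% of all genes were called. An unadjusted p under 0.05 was reached in 8.70% of the member tests and in 10.4% of all tests. The members' median log2 difference from controls lay above that of all genes in 32 groups and below it in 14.

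**Figure D1:**
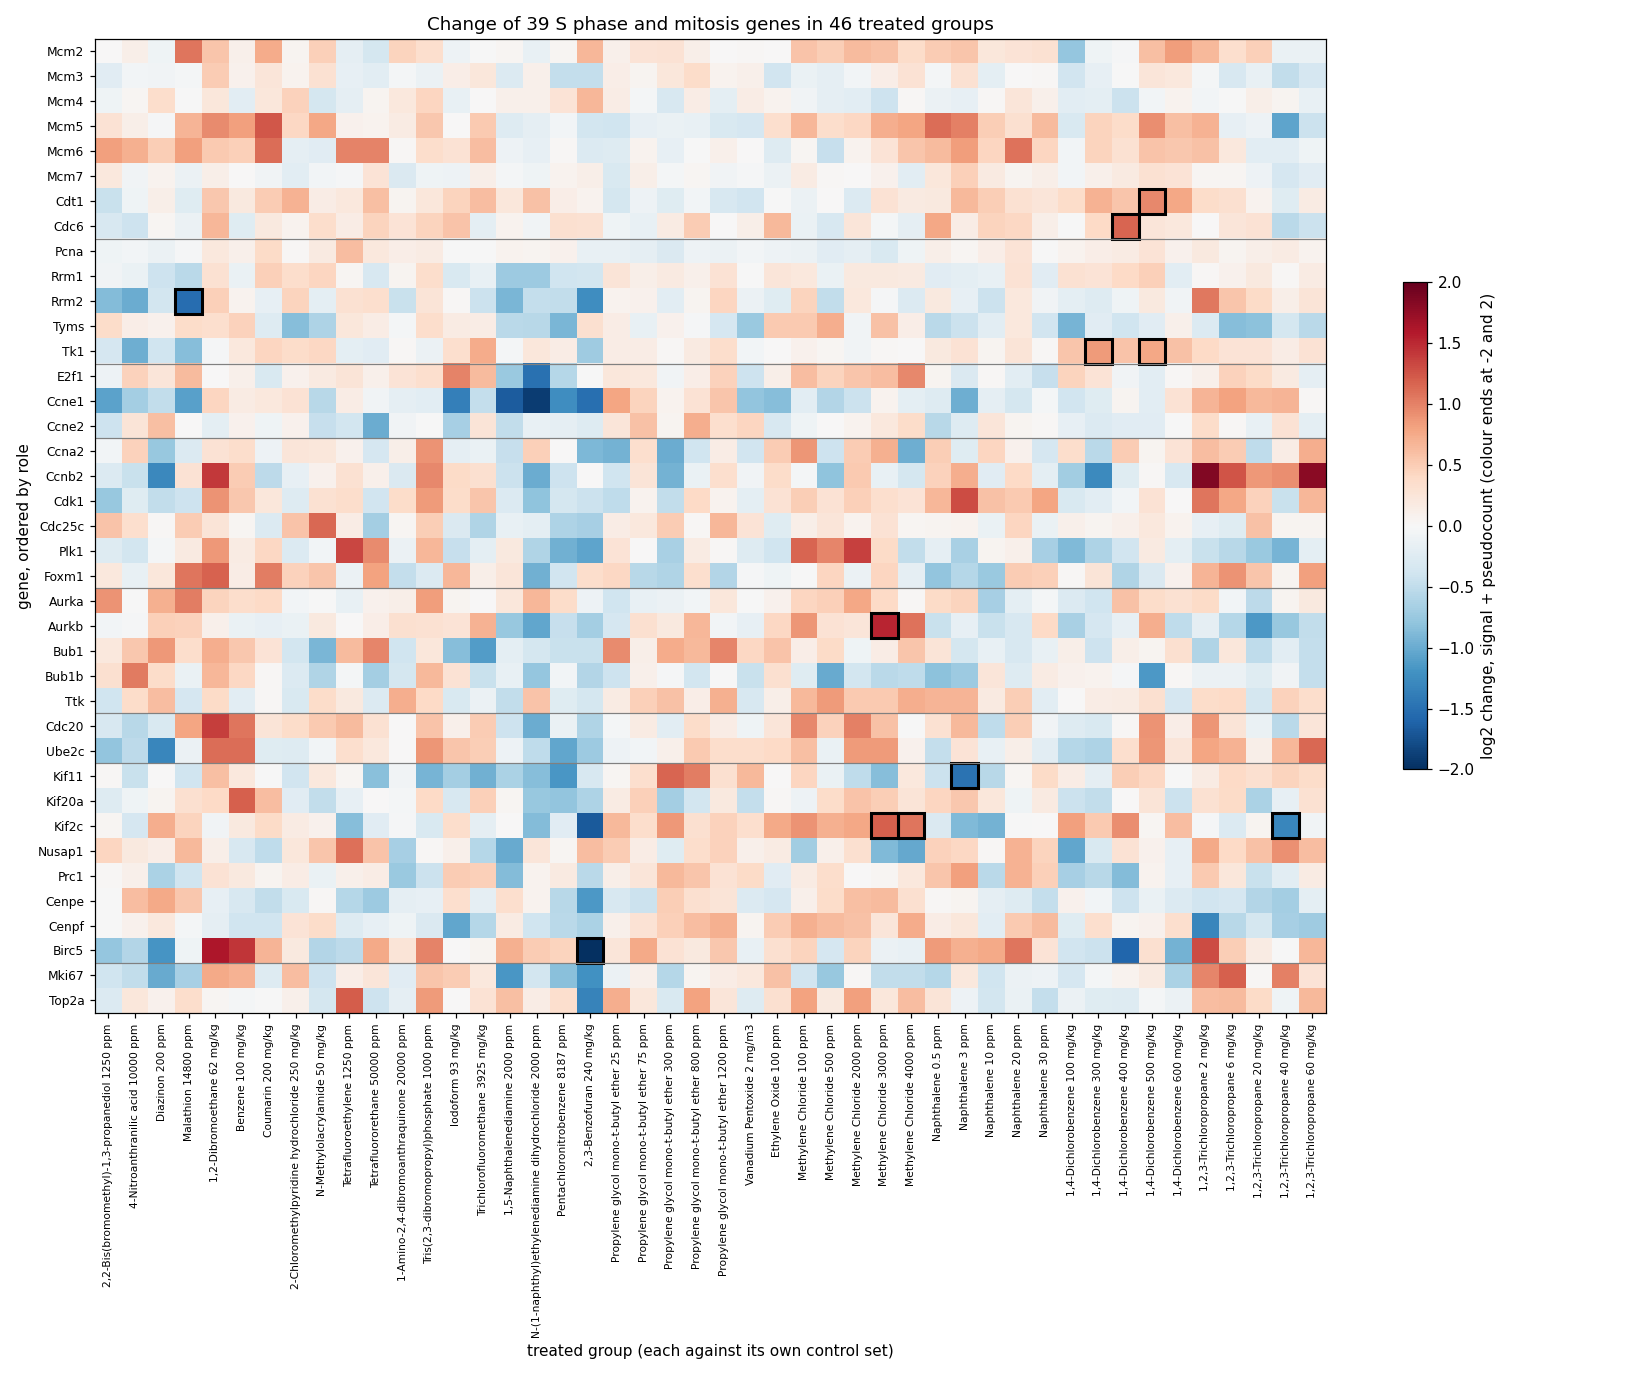
Log2 change from the control set of each of the 39 members (rows, by role) in each of the 46 treated groups (columns), from blue (lower) to red (higher), with black boxes on called values. The 11 boxes are scattered over 9 columns, and no column has more than 2.

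Among the licensing factors, which load the helicase on origins, 2 of 368 tests were called (0.543%, against 0.751% of all gene tests). Both were higher and both under 1,4-Dichlorobenzene, a chlorinated benzene used in moth repellents. Cdt1 recruits the MCM complex to origins. Its signals at 500 mg/kg were 565, 507, 844 and 539, against 250, 356, 256, 344 and 315 in the corn oil controls CCO5. All 4 treated arrays lay above all 5 controls. Cdt1 rose by 0.96 ± 0.24 on the log2 scale (SE, adjusted p = 0.013 in limma), and with Tk1 it made 2 called members of 39, against 0.803% of all genes. A second probe set of Cdt1 gave 0.89 and the remaining, dim one −0.02. The call was lost without control 1, control 3 or treated array 3.

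Cdc6, which with Cdt1 assembles the licensing complex, gave 52.9, 39.2, 25.9 and 38.99 at 400 mg/kg and 20.4, 3.60, 3.38, 8.22 and 5.76 in the same controls. The groups did not overlap, at signals near the low end of the array. The difference was 1.16 ± 0.31 (SE, adjusted p = 0.048), the sole member called there, against 0.462% of all genes. It remained called in 2 of the 9 refits that left out 1 array, without control 1 or treated array 3. None of the 6 MCM genes was called in any treated group. Mcm7 at 3 ppm of Naphthalene passed the adjusted p but not the fold, at 0.48 ± 0.14 (adjusted p = 0.022). The lowest adjusted p of the other 5 was that of Mcm5 at 0.5 ppm of Naphthalene (1.12 ± 0.38, adjusted p = 0.069), followed by Mcm2 under Malathion (1.07 ± 0.36, adjusted p = 0.077).

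Among the genes of DNA synthesis, 3 of 230 tests were called (1.30%, against 0.751% of all gene tests). Tk1 rose under 1,4-Dichlorobenzene at 300 mg/kg, from 661, 1055, 725, 987 and 775 in controls to 1258, 1821, 1518 and 1471. The difference was 0.85 ± 0.19 (SE, adjusted p = 0.0031), the sole call there, against 2% of all genes. It was lost with only the compared groups fitted (adjusted p = 0.14), as was every other member call in a treated group of run D. At 500 mg/kg the signals were 1438, 1365, 1749 and 1221 and the difference 0.78 ± 0.19 (adjusted p = 0.010). The 500 mg/kg call was lost without control 1 or treated array 3. The other doses gave 0.55, 0.57 and 0.58 at 100, 400 and 600 mg/kg (adjusted p = 0.30, 0.14 and 0.14), and all 5 comparisons share the CCO5 controls. Every array at 100, 300 and 500 mg/kg lay above every control, while 1 array at 400 mg/kg (928) and 1 at 600 mg/kg (1019) lay among them.

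Summed lymphocyte markers were above the 1045 to 1480 of the controls in every array at 300 mg/kg (1552 to 3322), 500 mg/kg (2424 to 6215) and 600 mg/kg (1691 to 10251). At 400 mg/kg they were 1438 to 2429, and at 100 mg/kg they lay within the controls, at 1118 to 1449. Their highest value was at 600 mg/kg, and that of Tk1 at 300 mg/kg. The Gapdh 3′ to 5′ ratio (log2), a sign of RNA breakage, was −0.59 to −0.48 over the arrays at 100, 300, 400 and 500 mg/kg, below the −0.41 to −0.12 of the controls. Summed bile duct markers at 400 and 500 mg/kg were 351 to 482, against 495 to 647 in the controls. With the Gapdh ratio as covariate no member was called at 400 or 500 mg/kg. The part of these markers in the result was not tested.

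Rrm2 codes for the small subunit of ribonucleotide reductase, which supplies deoxynucleotides in S phase. It fell under Malathion, an organophosphate insecticide. Its signals were 236, 197, 322, 220 and 272, against 716, 705, 816 and 614 in the chow controls FCO2. The groups were far apart, and the difference was −1.52 ± 0.35 (SE, adjusted p = 0.0049), 2.87-fold lower. RNA integrity numbers did not overlap either, at 4.7 to 6.5 under Malathion (1 missing) and 6.7 to 7.2 in FCO2, and the call remained without the 2 arrays under 5. It was the sole member called, against 4.37% of all genes. All 3 probe sets of Rrm2 were lower, by −1.75, −1.47 and −1.34, and the call remained in each of the 9 refits without 1 array. The control set FCO2 had the highest Rrm2 mean of the 14 sets (9.51 on the log2 scale). The other sets of run A had means of 8.03 to 8.50, and the Malathion group had 8.04. The other chow groups compared with FCO2 were also lower without passing the test, 4-Nitroanthranilic acid at −0.995 ± 0.368 (adjusted p = 0.53), 2,2-Bis(bromomethyl)-1,3-propanediol at −0.86 ± 0.35 (adjusted p = 1.00) and Diazinon at −0.36 ± 0.37 (adjusted p = 0.998). Summed pancreas markers, a sign of adjacent tissue, were 1694 to 2286 under Malathion and 4360 to 4952 in its controls. Within that list the called genes went opposite ways, Cela1 at −1.57 and Pnliprp1 at 3.04 on the log2 scale (adjusted p = 0.0020 and 8.6e-06 in limma). The part of RNA quality and of these markers was not tested.

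The G1/S regulators E2f1, Ccne1 and Ccne2 were called in none of 138 tests, against 0.751% of all gene tests. Ccne1 (cyclin E1), which drives entry into S phase, had an unadjusted p under 0.05 in 6 of 46 groups, lower in each. Over all genes 10.4% of the tests in these groups had such a p, in either direction. Its lowest value was −1.89 ± 0.64 under N-(1-naphthyl)ethylenediamine dihydrochloride (adjusted p = 0.16), against chow controls of run C, which had the highest Ccne1 mean of the 14 sets (8.02).

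The genes of mitotic entry, Ccna2, Ccnb2, Cdk1, Cdc25c, Plk1 and Foxm1, were called in none of 276 tests (0.751% of all gene tests). Ccnb2 had the largest differences, 1.85 ± 0.63 at 2 mg/kg and 1.80 ± 0.63 at 60 mg/kg of 1,2,3-Trichloropropane (adjusted p = 0.31 and 0.21). Plk1, the polo kinase of early mitosis, stood at 1.36 ± 0.47 under 2000 ppm of Methylene Chloride (adjusted p = 0.14).

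Among the checkpoint kinases Aurka, Aurkb, Bub1, Bub1b and Ttk, 1 of 230 tests was called (0.435%, against 0.751% of all gene tests). Aurkb, the kinase of the passenger complex, gave 3.90, 73.4, 125 and 86.8 under 3000 ppm of Methylene Chloride, an inhaled solvent, against 6.38, 4.20, 14.9, 2.99 and 14.6 in the air controls ACO4. Of the 4 treated arrays 3 were high and 1 lay at the control level. The difference was 1.52 ± 0.47 (SE, adjusted p = 0.038), and with Kif2c it made 2 called members there, against 3.05% of all genes. The second probe set gave −0.20. The call was lost without control 1, 2, 4 or 5 and without treated array 2, 3 or 4. The mitotic exit genes Cdc20 and Ube2c were called in none of 92 tests (0.751% of all gene tests).

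The spindle, kinetochore and cytokinesis genes held 5 calls in 368 tests (1.36%, against 0.751% of all gene tests). Kif2c, a kinesin that takes microtubules apart at kinetochores, gave 206, 184, 194 and 235 at 3000 ppm of Methylene Chloride, against 19.2, 109, 123, 60.2 and 146 in ACO4. All treated arrays were above all controls, and the difference was 1.20 ± 0.32 (SE, adjusted p = 0.012). At 4000 ppm Kif2c gave 272, 129, 200 and 163, with 1 array among the controls, and 1.07 ± 0.32 (adjusted p = 0.032), the sole call against 2.92% of all genes. Both comparisons share the ACO4 controls. The 4 probe sets of Kif2c did not agree, at 0.87, −0.38, 0.13 and 1.20 for 3000 ppm and 0.61, −0.41, −0.32 and 1.07 for 4000 ppm, so the direction depends on the probe set. The 3000 ppm call was lost without control 1 (0.85, adjusted p = 0.11) or treated array 4, and the 4000 ppm call without control 1 or 4 or treated array 1, 3 or 4. At 3000 ppm, summed Kupffer cell markers were 14742 to 18641 against 19796 to 21104, and summed erythroid markers 1746 to 2350 against 1021 to 1557. Summed endothelial markers were 4826 to 5537 at 3000 ppm and 4834 to 5679 at 4000 ppm, against 5765 to 7107. Summed pancreas markers at 4000 ppm were 3356 to 5109 against 5592 to 7429. The part of these markers was not tested.

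Kif2c fell under 1,2,3-Trichloropropane, a chlorinated solvent, at 40 mg/kg. Its signals were 45.9, 50.5, 82.8 and 39.1, against 188, 212, 84.0, 120 and 224 in the corn oil controls CCO6, which had the highest Kif2c mean of the 14 control sets (7.44). The groups did not overlap, and the nearest arrays were at 82.8 and 84.0. The difference was −1.31 ± 0.32 (SE, adjusted p = 0.015), the sole call against 1.34% of all genes, and was lost without control 5 or treated array 4. Here too the probe sets differed, at −1.05, 0.50, −0.70 and −1.31.

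Kif11, the motor that pushes spindle poles apart, fell at 3 ppm of Naphthalene, the concentration next to the lowest of 5. Signals of 21.9, 3.53, 5.55 and 17.6 stood against 110, 37.8, 48.6, 53.1 and 76.0 in the air controls ACO5. The groups did not overlap, and the difference was −1.47 ± 0.46 (SE, adjusted p = 0.030), the sole call against 4.14% of all genes. Its other probe sets gave 0.03 and −1.17. The call was lost without control 1 or treated array 2 or 3. Summed neutrophil markers were 232 to 395 there, against 426 to 695, and summed hepatocyte markers 543590 to 606550 against 360060 to 469330. RNA integrity numbers were 9.2 in all 4 treated arrays and 8.5 to 8.9 in the controls. The part of these differences was not tested.

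Birc5 fell under 2,3-Benzofuran, by the largest difference of any member in any group. Its signals were 8.65, 9.41 and 9.38, against 175, 144 and 197 in the corn oil controls of run C. The difference was −2.83 ± 0.46 (SE, adjusted p = 0.0044) on its 1 probe set, and it held in each of the 6 refits without 1 array. It was the sole call, against 3.28% of all genes. The control set was the highest of the 14 for Birc5, as given above. The treated mean, 4.73, was the lowest of the 46 treated groups and stood beside that of the chow set of the same run, 4.74.

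Other members were also lower under 2,3-Benzofuran, 9 of 39 at an unadjusted p under 0.05 (12.7% of all genes) and 1 higher (7.9% of all genes). Top2a stood at −1.34 ± 0.59, Rrm2 at −1.24 ± 0.35, Mki67 at −1.22 ± 0.44 and Tk1 at −0.71 ± 0.26 (adjusted p = 0.22, 0.063, 0.14 and 0.14). Mki67 gave 97.1, 54.0 and 110 against 306, 212 and 159. The members' median, −0.45, was the lowest of the 46 groups (all genes, −0.12). Markers of several cell types did not overlap between the same arrays and were lower in the treated mice. Summed neutrophil markers were 425 to 530 against 710 to 1183, Kupffer cell markers 12880 to 16802 against 19294 to 25016, and lymphocyte markers 631 to 997 against 1006 to 1365. Summed hepatocyte markers were 384970 to 394470 against 404120 to 462540, and summed endothelial markers 3836 to 4402 against 5115 to 6195. The stellate, bile duct and pancreas lists were also lower in every treated array, and the erythroid list alone of the 9 overlapped. The part of these markers in the lower values was not tested. Mki67 and Top2a themselves were called in none of 92 tests over the 46 groups (0.751% of all gene tests).

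**Figure D2:**
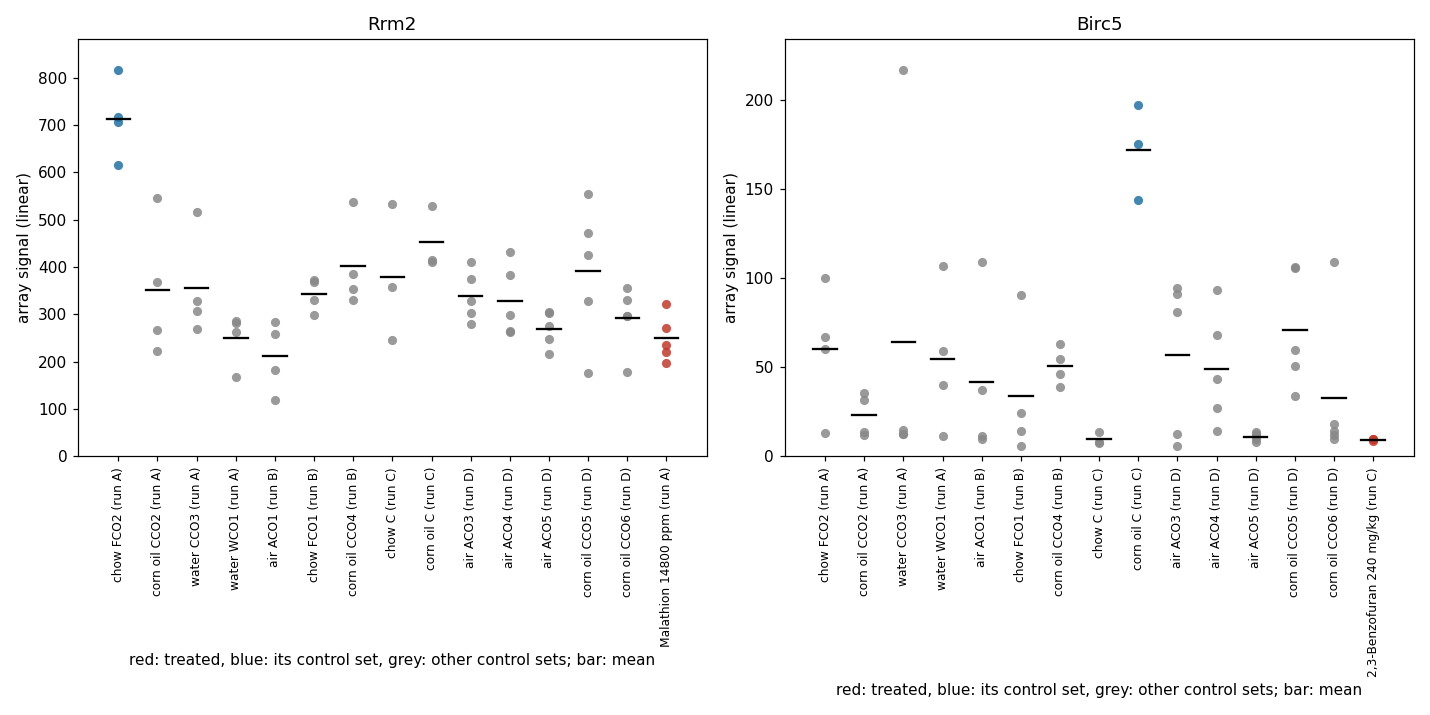
Linear array signal of Rrm2 (left) and Birc5 (right) in each of the 14 control sets and in the treated group in which each fell; points are arrays, bars are means, blue marks the control set used in that comparison. The Malathion arrays (197 to 322) and the 2,3-Benzofuran arrays (8.65 to 9.41) lie among or below other control sets, while their own control sets have the highest means.

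Dose series allowed a test of trend for 5 chemicals, as a linear contrast over the ranks of control and 5 doses, given as the log2 change fitted from control to the top dose. For 1,4-Dichlorobenzene 2 members were called (1.12% of all genes), Mcm2 and Cdt1, both rising with dose. Mcm2 signals were 223, 344, 223, 345 and 131 in controls, 153, 139, 218 and 64.3 at 100 mg/kg, and 185, 149, 270 and 333 at 300 mg/kg. They were 225, 115, 283 and 408 at 400 mg/kg, 189, 445, 743 and 306 at 500 mg/kg, and 449, 547, 433 and 357 at 600 mg/kg. Every array at 600 mg/kg lay above every control, and every array at 100 mg/kg lay below 4 of the 5 controls. The trend was 1.20 ± 0.30 (SE, adjusted p = 0.012), and 1.44 with the other probe set. It was 1.57 over the 5 dosed groups alone (adjusted p = 0.0023), and missed the threshold without control 5 (adjusted p = 0.055).

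The Cdt1 trend was 0.79 ± 0.20 (adjusted p = 0.014). Cdt1 stood at 0.36, 0.69, 0.56, 0.96 and 0.77 above controls from the lowest to the highest dose. Over the dosed groups alone the trend was 0.43 (adjusted p = 0.45). At an unadjusted p under 0.05, 7 members had a rising trend and 0 a falling one (7.49% and 6.27% of all genes). They were Mcm2, Mcm3, Mcm5, Mcm6, Mcm7, Cdt1 and Tk1, all of them S phase genes. The median trend of the 39 members was 0.22, and that of all genes −0.004. No member of the mitosis genes was called in that series. Outside the list, the mitosis genes Cit and Ect2 had called rising trends there, at 0.77 and 1.34 (adjusted p = 0.00044 and 0.043 in limma). Of 10 lymphocyte markers 1, Ighm (the immunoglobulin mu chain), was called in the same series, at 2.89 (adjusted p = 0.0077). The part of lymphocytes was not tested.

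**Figure D3:**
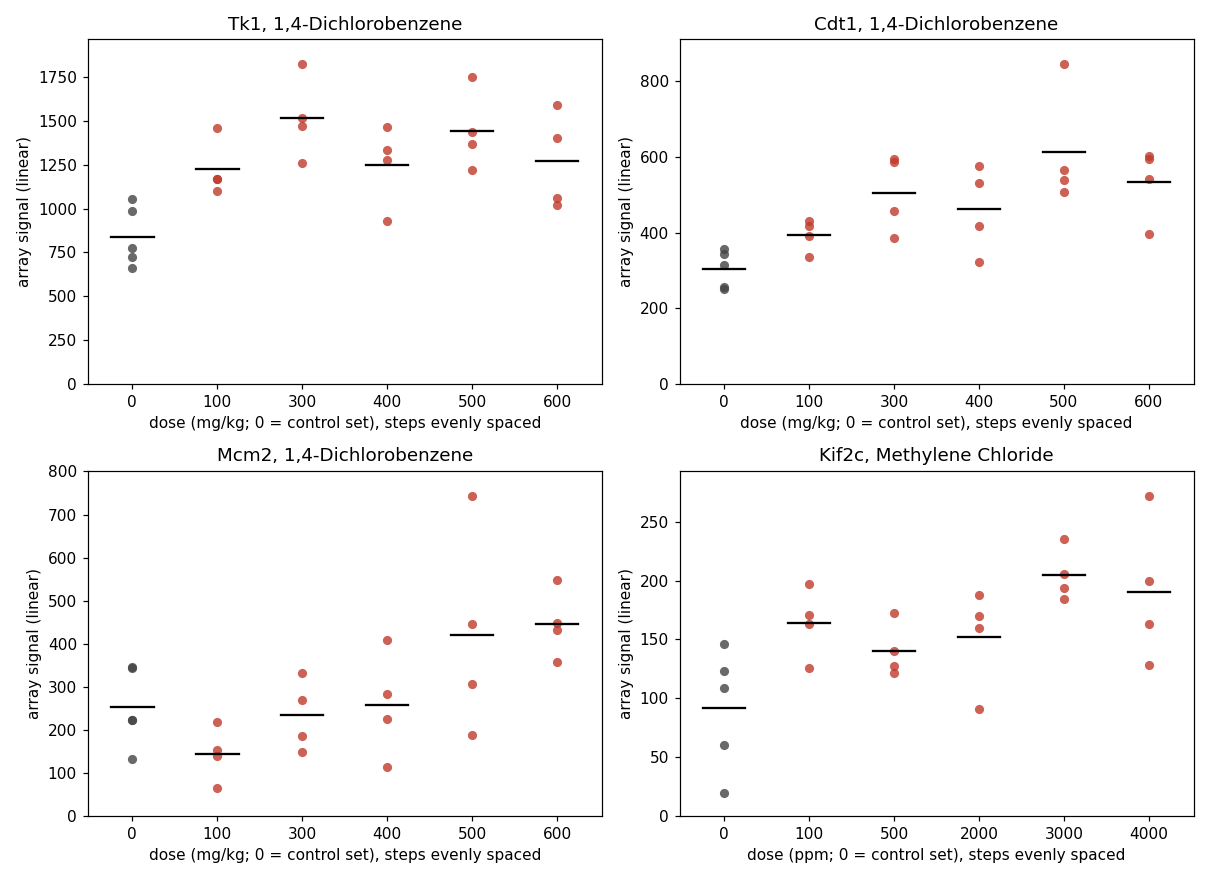
Linear signal of each array (points) and mean (bars) of Tk1, Cdt1 and Mcm2 against the dose of 1,4-Dichlorobenzene and of Kif2c against that of Methylene Chloride, at evenly spaced steps with controls at 0. Mcm2 at 600 mg/kg runs from 357 to 547, above the highest control at 345, while Tk1 is highest at 300 mg/kg.

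In the Methylene Chloride series Kif2c was the sole member called (3.5% of all genes), with a trend of 0.90 ± 0.28 (adjusted p = 0.025). The call was lost without control 1 or 4 and without array 1 or 3 at 4000 ppm, and the most variable probe set of Kif2c gave −0.45. At an unadjusted p under 0.05, 2 members had a rising trend and 0 a falling one (9.55% and 10.9% of all genes), Kif2c and Aurkb. No member was called in the trends of Naphthalene (0.0934% of all genes), 1,2,3-Trichloropropane (0.577%) or Propylene glycol mono-t-butyl ether (0.253%). At an unadjusted p under 0.05, 4 members had a falling trend with 1,2,3-Trichloropropane and 0 a rising one (7.9% and 5.04% of all genes). The 4 were Mcm3, Mcm5, Mcm7 and Kif2c. Mcm5 was the largest of them, at −1.06 ± 0.33 (adjusted p = 0.089). With Naphthalene 0 members had such a p (3.92% of all genes in the rising and 5.18% in the falling direction), and with Propylene glycol mono-t-butyl ether 1 was rising and 0 falling (4.72% and 5.24% of all genes), Cenpf at 0.76 ± 0.30 (adjusted p = 0.33).

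Some mice stood out. For each array the log2 difference of the 39 members from the mean of its control set was averaged to a score. The score is a description, and control arrays enter the mean they are set against. It was above 0.5 in 12 of 183 treated arrays and in 1 of 59 control arrays, and above 1 in 2 treated arrays. At 2 mg/kg of 1,2,3-Trichloropropane replicates 1 and 2 were both above 0.5, at 0.73 and 0.84, and the lowest mouse of that group was at −0.22. Replicate 1 at 6 mg/kg was at 0.66. The arrays named next were chosen by that score, after its values were seen.

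**Figure D4:**
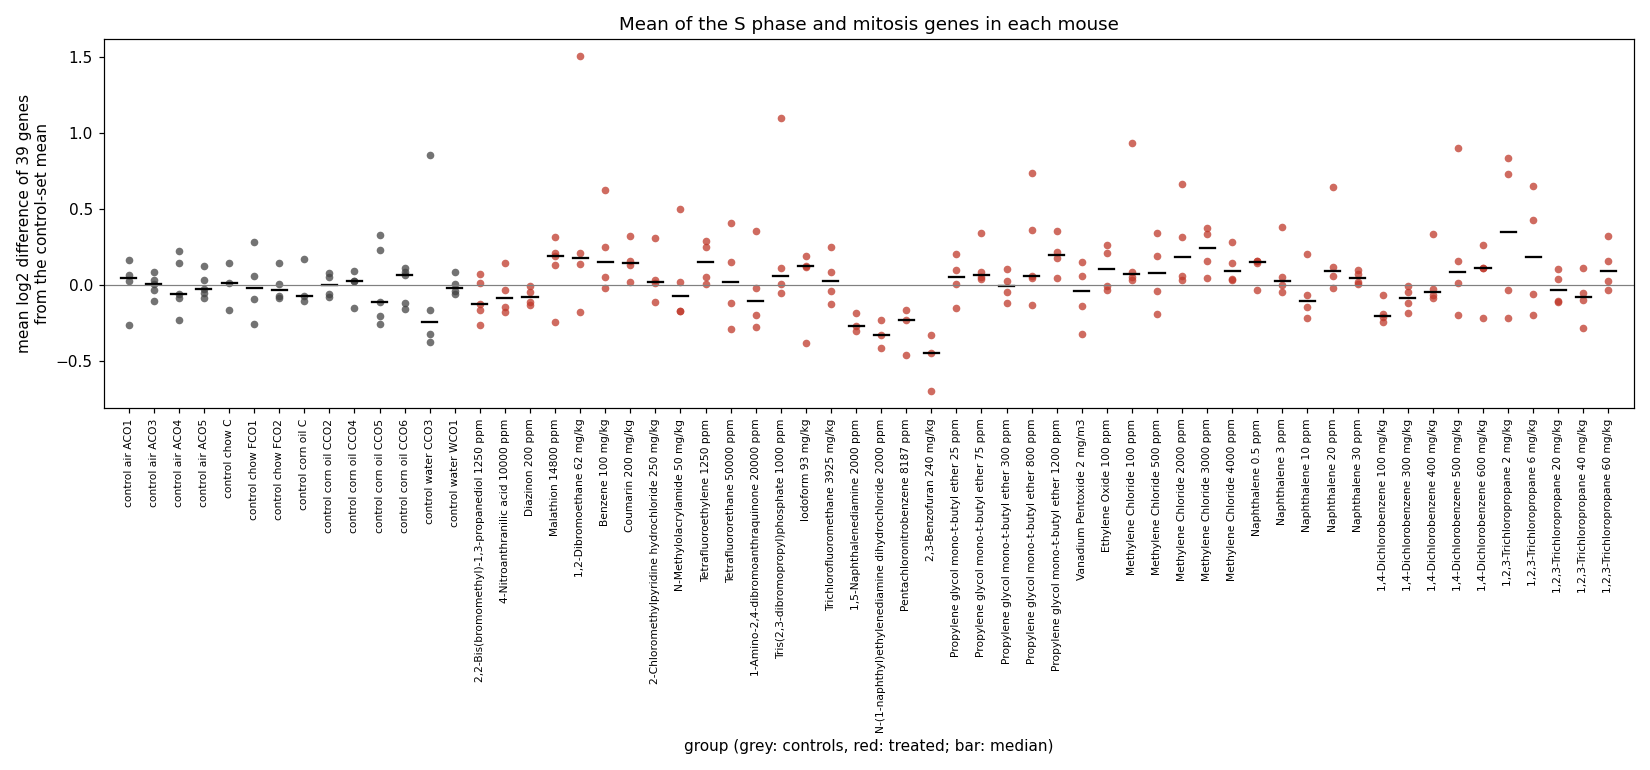
Mean log2 difference of the 39 members from the control-set mean for each of 242 mice (points), by group, with bars at group medians, controls in grey and treated mice in red. Most mice lie near 0, and single mice such as 1,2-Dibromoethane replicate 3 (1.51) and Tris(2,3-dibromopropyl)phosphate replicate 1 (1.10) lie far above the others of their groups.

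The highest score, 1.51, belonged to replicate 3 of 1,2-Dibromoethane, a fumigant given by gavage. In this mouse 29 of 39 members were above all 3 others of its group. Its Mki67 signal was 1130, against 40.7 to 68.9 in the others. Top2a was 611 against 11.1 to 114, and Cdc20 was 1160 against 85.3 to 224. Markers of neutrophils and their precursors were above all group-mates in 8 of 8 genes, summing to 93290 against 619 to 675, and the granule enzyme Mpo was 5040 against 48.1 to 98.6. Kupffer cell markers were higher in 10 of 10 genes, summing to 103200 against 17870 to 28100. Lymphocyte markers summed to 13920 against 936 to 1184, with 7 of 10 genes higher, and stellate and fibroblast markers to 30730 against 5315 to 9532, the highest sum of all arrays, with 7 of 8 genes higher. Without this mouse the group's median member difference went from 0.44 to 0.07. The part of these markers in the high score was not tested.

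Replicate 2 of the water control set CCO3 showed a like profile at a score of 0.86. Its Mki67 signal was 437 against 49.5 to 77.1, Birc5 217 against 12.2 to 14.9, and Mcm5 538 against 73.0 to 102. Neutrophil markers summed to 46880 against 453 to 2250, with 8 of 8 genes above the others, and Kupffer cell markers to 108000 against 15110 to 21030. This mouse received no test chemical, and its set entered no treated comparison. High neutrophil markers did not always go with a high score. Benzene replicates 2 and 1 had the next highest neutrophil sums, 14760 and 11060, with scores of 0.05 and −0.02 (median sum over all arrays, 537).

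Other mice scored high with neutrophil marker sums within the range of their group-mates. Replicate 1 of Tris(2,3-dibromopropyl)phosphate, a brominated flame retardant, scored 1.10, with 33 of 39 members above its group-mates. Its Ube2c signal was 927 against 42.8 to 136, Ccnb2 505 against 66.6 to 136, and Rrm2 971 against 302 to 314. Its neutrophil markers summed to 549, within the 371 to 561 of the others. Without it the group's median went from 0.35 to 0.08.

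Replicate 1 of Methylene Chloride at 100 ppm, the lowest concentration, scored 0.93, with 31 members above its group-mates. Its Ccnb2 signal was 213 against 11.2 to 22.5, its Rrm2 signal 1070 against 298 to 366, and its neutrophil sum 448 against 429 to 678. The other 3 mice of that group scored 0.04 to 0.09.

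Replicate 3 of 1,4-Dichlorobenzene at 500 mg/kg scored 0.90. Its Cdc20 signal was 1140 against 120 to 238 and Rrm2 1120 against 183 to 569, while Mki67, at 52.5, lay within the 37.9 to 84.3 of the others. Its neutrophil sum was 595, within 440 to 734. Both the Tk1 and the Cdt1 call at that dose were lost without this array. RNA integrity numbers were missing for the Tris(2,3-dibromopropyl)phosphate and Methylene Chloride arrays and 7.5 for this one.

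The lowest score was −0.70, in replicate 3 of 2,3-Benzofuran. All arrays of the 4 treated groups of run C scored below 0, against control sets of 3 mice each.

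Most pairs of members were weakly correlated from mouse to mouse. After centring each gene on its group mean, the 741 pairs of members had a median Pearson r of 0.09 over 242 arrays, and 102 pairs were above 0.3. These values are descriptions, and the genes of an array share its RNA and scaling. Without the 10 arrays of highest score the median was 0.06 and 36 pairs were above 0.3. The highest pair was Cdc20 with Mcm5, at 0.65. By run the median was 0.16, 0.14, 0.01 and 0.09 in runs A to D.

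Some members followed the rest closely and others not at all. The r with the mean of the other 38 was 0.78 for Cdc20, 0.68 for Rrm2, 0.59 for Top2a, and 0.58 for Ccnb2 and Ube2c. It was 0.04 for Tk1, 0.03 for Kif11, 0.05 for Cenpf and −0.03 for Tyms, the thymidylate synthase. Cdc20, Ccnb2, Ube2c and Top2a have a CHR match, while Rrm2 has a CCAAT box and no CHR match. The other measured members with a CHR match were Cdk1 (0.56), Mki67 (0.45), Mcm2 (0.36), Prc1 (0.32), Kif2c (0.14) and Kif11 (0.03). Tk1 has no match in its window, and neither has Cdt1 (0.34), whose window is not printed. Members with a CHR match thus ran from 0.03 to 0.78. Whether the letters sort the members was not tested.

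Outside the list, the genes most like Mki67 over the same centred arrays were D17H6S56E-5 (r = 0.46), Sema6d (0.43), Ifit1 (0.43), Rsad2 (0.43) and Stmn1 (0.42). For Top2a they were D17H6S56E-5 (0.55), Cdc20 (0.51), Stmn1 (0.49), Cdca3 (0.43) and Ccnb2 (0.42).

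The score had a higher r with other S phase and mitosis genes than with markers of any cell type. Over 242 centred arrays its r was 0.82 (Spearman's rho 0.74) with the mean of 79 other mitosis genes and 0.65 (0.53) with that of 47 other S phase genes. It was 0.42 with stellate and fibroblast markers, 0.37 with lymphocyte markers, 0.37 with neutrophil markers, 0.36 with Kupffer cell markers and −0.05 with hepatocyte markers. The marker lists held only 5 to 10 measured genes each, and the difference in r between lists was not tested. Without the 2 arrays farthest from the median score, the r with neutrophil markers was 0.13 and that with other mitosis genes 0.78. The r with the Gapdh 3′ to 5′ ratio was 0.03, and with the RNA integrity number 0.02 (217 arrays).

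**Figure D5:**
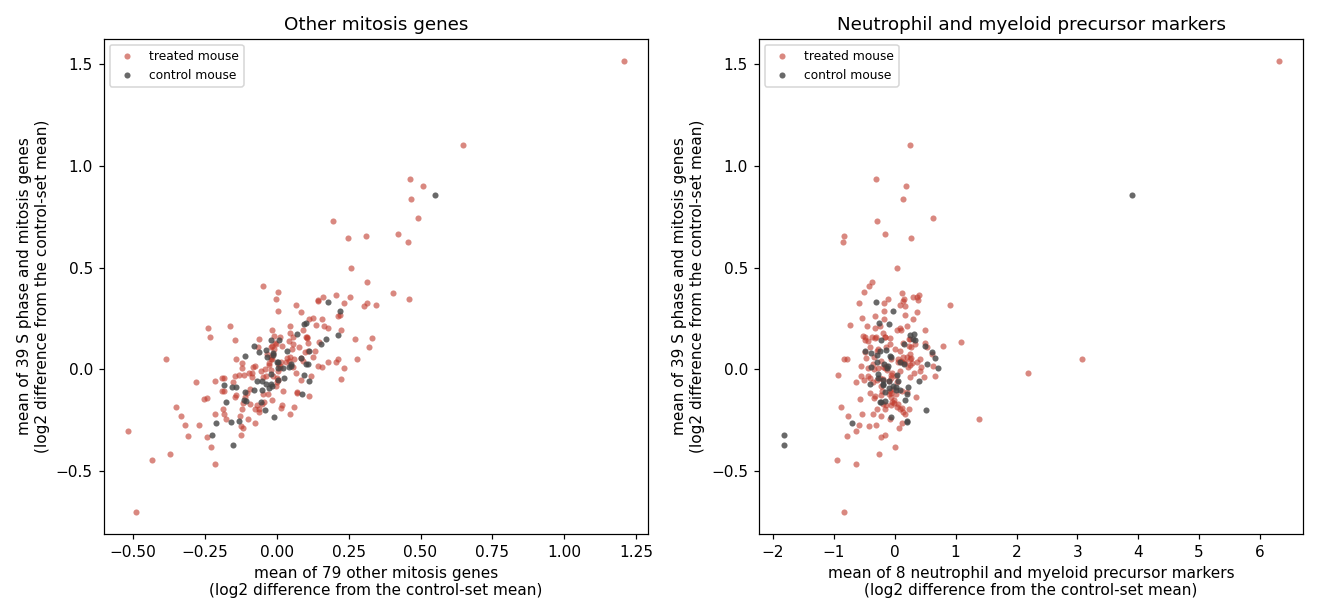
Mean log2 difference from the control set of the 39 members (vertical axes) against that of 79 other mitosis genes (left) and of 8 neutrophil and myeloid precursor markers (right), 1 point per mouse. The points follow a rising band on the left, and on the right 2 mice, with member values of 1.51 and 0.86, lie far from the column formed by most of the others.

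Wider lists of the cycle were called in both directions. Over the 46 groups, 47 other S phase genes had 10 higher and 12 lower calls (1.02% of tests) and 79 other mitosis genes 12 and 13 (0.688%), against 0.751% of all tests. The genes said to rise or fall next were called in limma by the same rule. Under 1,4-Dichlorobenzene, Rfc3, a subunit of the clamp loader, rose at 300, 400, 500 and 600 mg/kg, by 0.78, 0.66, 0.76 and 0.69. Cit, a kinase of cytokinesis, rose at 400, 500 and 600 mg/kg by 0.76, 0.86 and 0.78. At 300 mg/kg 3 genes of these lists fell, Orc1 (−1.47), a subunit of the origin recognition complex, Smc2 (−1.35), a condensin subunit, and Spc25 (−1.23), a kinetochore protein. Under Methylene Chloride, Mcm10, a factor that activates the loaded helicase, rose by 0.77 and 1.13 at 3000 and 4000 ppm, and Nek2, a centrosome kinase, by 0.84, 0.89 and 0.72 at 2000, 3000 and 4000 ppm. Hells and Cit also rose at 3000 ppm, by 1.25 and 0.65, and Wee1 was 2.83-fold higher at 4000 ppm. Orc6 fell at 500 ppm (−1.54) and Smc2 at 3000 ppm (−1.32). Over the Methylene Chloride series Mcm10, Nek2, Gas2l3 and Wee1 had called rising trends (1.09, 0.74, 1.15 and 1.20), and E2f8 and Incenp called falling ones (−1.17 and −0.81). Under Naphthalene most calls of these lists were lower. At 0.5 ppm Brca1 (−0.98), Ung (−0.70), Aspm (−0.89) and Nek2 (−0.79) fell and Pole (1.77), the catalytic subunit of DNA polymerase epsilon, rose. At 3 ppm Orc1 (−1.22), Brca1 (−0.92), Cenpn (−0.87), Mybl2 (−1.28, B-MYB) and Tpx2 (−1.06) fell and Rfc2 (0.67) rose. The doses of each series share their controls.

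Under Malathion, Mcm10 fell by 1.47 and E2f8, a repressor of E2F targets, by 1.98 on the log2 scale, in the mice in which Rrm2 fell. Cks1b and Cks2, small partners of the cyclin-dependent kinases, rose by 1.40 and 0.72 there, and Gas2l3 by 1.63. Under 1,5-Naphthalenediamine, where no member of the main list was called (3.4% of all genes), Cdc45 (−1.57), Dtl (−1.80), Nek2 (−1.63), Tpx2 (−1.03), Ung (−0.96) and Cenpa (−0.77) fell and Cks2 (0.65) rose. In the same arrays summed endothelial markers were 3579 to 4645 against 4994 to 6664 in the controls, Kupffer cell markers 11543 to 16740 against 17908 to 22123, and hepatocyte markers 407980 to 433110 against 461670 to 476680. The bile duct and pancreas lists were lower in every treated array too, and Stab2, an endothelial receptor, was called at −0.90. The part of these markers was not tested.

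The 14 G1 cyclins, kinases and pocket proteins had 1 higher and 8 lower calls (1.40% of tests, against 0.751% of all tests). Ccnd1 (cyclin D1), which links growth signals to the cycle, fell by 2.38 under Coumarin, by 1.51 under 1,5-Naphthalenediamine, by 1.24 under 2,3-Benzofuran, and by 1.09 and 1.38 at 40 and 60 mg/kg of 1,2,3-Trichloropropane. The 13 inhibitors and p53-linked brakes had 8 higher and 4 lower calls (2.01%, against 0.751% of all tests). These counts hold repeated calls of a gene. Ccng1 was called higher under Malathion (1.70) and at 3000 and 4000 ppm of Methylene Chloride (0.59 and 1.03), which share their controls. Cdkn1a was called in opposite directions, under Malathion (3.56) and at 300 mg/kg of 1,4-Dichlorobenzene (−2.04).

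Related compounds were compared in 2 pairs. The aromatic amines 1,5-Naphthalenediamine, with both amino groups on the ring, and N-(1-naphthyl)ethylenediamine dihydrochloride, with an ethylenediamine chain on the ring, were fed at 2000 ppm in the same run. No member differed between them at an adjusted p under 0.05 (0.923% of all genes), and 1 had an unadjusted p under 0.05, lower under 1,5-Naphthalenediamine, and 0 higher (8.13% and 5.05% of all genes). It was Nusap1, a spindle protein, at −1.25 (95% interval −2.37 to −0.13, adjusted p = 0.31). The median difference was 0.13 with a median half-width of 1.05, and 9 of 39 intervals lay within 1 log2 unit of 0. The remaining intervals reach past a 2-fold difference.

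1,4-Dichlorobenzene and Benzene, which differ by the 2 chlorine atoms of the former, were both given at 100 mg/kg, in different runs and each against its own controls. No member differed (0% of all genes called, lowest adjusted p of a member 0.70). At an unadjusted p under 0.05, 4 were lower under 1,4-Dichlorobenzene and 0 higher (3.93% and 2.52% of all genes). The 4 were Birc5 (−1.81), Kif20a (−1.63), Tyms (−1.40) and Ube2c (−1.70). Benzene replicate 3 had a score of 0.63, with 16 of 39 members above its group-mates. Its Ube2c signal was 399 against 45.1 to 176 in them, and its Birc5 signal 223 against 62.3 to 65.5. The median difference was −0.32 with a median half-width of 1.25, and 5 of 39 intervals lay within 1 log2 unit of 0.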

How the data were processed

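The members and the lists were chosen with earlier results of these data known. Liver RNA was hybridised to Affymetrix Mouse430_2 arrays, and the values the authors deposited are probe set signals as linear intensity, made with GCOS 1.0 per the submitters' processing notes. Further steps are not given in the sources used here. A trimmed mean (2% off each end) of 500 was found on 240 arrays, and the other 2 (Vanadium Pentoxide replicate 4 at 148 and 1,5-Naphthalenediamine replicate 2 at 84.5) were multiplied by 1 factor each to reach it.

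Of 45101 probe sets, 64 were controls and 34945 had exactly 1 gene symbol. Values were log2(signal + 17.3), the pseudocount being the median of the 242 arrays' 20th percentiles, so folds of dim genes are understated. limma 3.58.1 (R 4.3.3, with the package data.table, version 1.17.8) was fitted to all genes of each run with 1 mean per group, with the run code as a block in run A, and p-values were adjusted over all genes by Benjamini and Hochberg. Tests were two-sided. In run A the fitted differences are therefore not plain differences of group means. Control sets were matched by vehicle, run and animal numbers, because no label pairs them. Depth has no meaning for arrays, whose number per group limits the precision.

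Every called member is named. In comparisons with none called, counts at an unadjusted p under 0.05 stand for the members, the likeness rule takes the 5 genes of highest r, and other members and listed genes given by name were chosen after their values were seen. The fit was tested on simulated data. Promoter windows were searched with Python 3.11.15, and figures drawn with matplotlib 3.10.9.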

Additional observations from a re-analysis of the deposited data

Results flagged for a closer look

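In 54 groups of 4 or 5 arrays the member score of the mouse farthest from its group was set against the range of the group, and chance alone marks about 1 group in 20. In 6 groups 1 mouse stood apart. Methylene Chloride at 100 ppm replicate 1 scored 0.934 (the others 0.036 to 0.091), and Tris(2,3-dibromopropyl)phosphate replicate 1 scored 1.10 (the others −0.05 to 0.113). 1,4-Dichlorobenzene at 400 mg/kg replicate 4 scored 0.337 (−0.083 to −0.028), and replicate 2 of Propylene glycol mono-t-butyl ether (75 ppm) scored 0.346 (0.041 to 0.086). Naphthalene at 0.5 ppm replicate 4 scored −0.028 (0.146 to 0.159), and Iodoform replicate 1 scored −0.38 (0.123 to 0.194).

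Among the wider cell cycle lists, 3 genes differed between 1,5-Naphthalenediamine and N-(1-naphthyl)ethylenediamine dihydrochloride by limma's test of the difference. Cdkn1a, the p21 inhibitor, differed by 3.66 on the log2 scale (adjusted p = 0.019), being 1.10 above the shared controls under the first and at −2.56 under the second, neither of which was called. Mcm10 differed by −1.29 (adjusted p = 0.034), from −0.64 and 0.65, neither called. Ung, the uracil DNA glycosylase, differed by −1.45 (adjusted p = 0.0022), from −0.96, which was called, and 0.50. The 2 compounds were given at the same dose and share their 3 control mice.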

How the results depend on the processing

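Of 1426 values recomputed under other settings, 1244 kept their direction and side of the threshold (for counts, stayed within 1.5 times). The number of members called per comparison was the same in every setting and refit for 39 of the 58 comparisons. Over the 46 treated groups the 11 calls became 8 with the values as deposited, 8 with quantile normalization within a run, 9 and 10 with the pseudocount 4 times lower and higher, 7 with the probe set of largest variance, 9 with the mean of all probe sets, 8 with the Gapdh ratio as covariate, 3 with only the compared groups fitted, and 15 without dim genes (630 tests). The cause was not tested. Moved counts under each setting lay between 0 and 3, as follows.

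With the values as deposited, 2 members were called for 1,5-Naphthalenediamine and 1 each for Vanadium Pentoxide (both groups then hold an unscaled array), Methylene Chloride at 3000 ppm and 1,4-Dichlorobenzene at 500 mg/kg, and 0 for Methylene Chloride at 4000 ppm, Naphthalene at 3 ppm, 1,4-Dichlorobenzene at 400 mg/kg and 1,2,3-Trichloropropane at 40 mg/kg. Quantile normalization gave 1, 0 and 0 for Methylene Chloride at 3000 and 4000 ppm and Naphthalene at 3 ppm. Other pseudocounts gave 1 for Methylene Chloride at 3000 ppm, 0 for 1,4-Dichlorobenzene at 400 mg/kg and Naphthalene at 3 ppm, and 2 for 2,3-Benzofuran. Other probe set rules gave 2 for 2,3-Benzofuran and Malathion, 1 for 1,5-Naphthalenediamine and 1,4-Dichlorobenzene at 500 and 600 mg/kg, and 0 for 1,4-Dichlorobenzene at 400 mg/kg, 1,2,3-Trichloropropane at 40 mg/kg, Methylene Chloride at 3000 and 4000 ppm and its trend. With the probe set of largest variance Kif2c reversed, to −0.38 and −0.41 at 3000 and 4000 ppm, −0.45 in the trend and 0.50 at 40 mg/kg of 1,2,3-Trichloropropane. Without dim genes, which leaves fewer genes tested, the counts were 3 for Malathion and Naphthalene at 3 ppm, 2 for 1,4-Dichlorobenzene at 300 mg/kg, 1 for Methylene Chloride at 3000 ppm and Naphthalene at 0.5 ppm, and 0 for 1,4-Dichlorobenzene at 400 mg/kg. The Gapdh covariate gave 0 at 400 and 500 mg/kg of 1,4-Dichlorobenzene. With only the compared groups fitted, which leaves fewer arrays to estimate the spread, the counts were 2 for Malathion, 1 for the 1,4-Dichlorobenzene trend and 0 for the Methylene Chloride trend and for the 7 groups of run D with a call. Pooled control sets gave 1 for Methylene Chloride at 3000 ppm and Naphthalene at 0.5 ppm, 2 for Naphthalene at 3 ppm, and 0 for Methylene Chloride at 4000 ppm, 1,4-Dichlorobenzene at 400 mg/kg and 1,2,3-Trichloropropane at 40 mg/kg. A trend linear in dose gave 0 for Methylene Chloride, and dosed groups alone gave 1 each for Naphthalene and 1,4-Dichlorobenzene. Malathion kept 1 call without its 2 arrays of RNA integrity number under 5, a setting chosen after seeing the data.

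Without 1 array at a time, counts ran from 0 to 3 for Naphthalene at 3 ppm and 1,4-Dichlorobenzene at 500 mg/kg, and from 0 to 2 for Tetrafluoroethylene, Methylene Chloride at 3000 ppm and its trend. They ran from 1 to 2 for Malathion, 1,4-Dichlorobenzene at 300 mg/kg and its trend, and from 0 to 1 for Methylene Chloride at 4000 ppm, 1,4-Dichlorobenzene at 400 mg/kg, 1,2,3-Trichloropropane at 40 mg/kg and its trend, Naphthalene at 0.5 ppm and N-(1-naphthyl)ethylenediamine dihydrochloride. No paired analysis was possible because replicate numbers only name the mice of a group in accession order. Low signal limits most members, and groups of 3 to 5 mice limit all of them.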
